A study of Mus musculus with 15 samples.

Results

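Matricellular and activated fibroblast genes were followed across mouse hearts with and without chronic kidney disease (CKD) and with and without added renalase (RNLS), an enzyme made in the kidney and heart. The members are 10 genes chosen by name: Postn, Fn1, Tnc, Sparc, Thbs1, Spp1, Cilp, Fbn1, Acta2 and Fap. They are 10 of the 17447 genes in the deposited count table, and all 10 had enough counts to be tested. Matricellular proteins are secreted into the extracellular matrix, where they act on cells and on growth factors more than they bear load. In the resting adult heart most of them are scarce, and after injury fibroblasts that turn into myofibroblasts make them together with contractile actin. Fibronectin and fibrillin form the fibres on which that matrix and latent transforming growth factor β (TGF-β) are laid down.

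The 15 hearts fell into 5 groups of 3, all from male C57BL/6J mice of 6 to 8 weeks at the start, with hearts taken 18 weeks after surgery. WTSHAM mice were wild-type mice with a sham operation, and WTCKD mice were wild-type mice with subtotal nephrectomy that received what the labels call vector in week 2. WTCKD + RNLS mice were wild-type mice with subtotal nephrectomy that received, in the same week, AAV9 carrying Rnls behind the cTnT promoter, which is active in cardiomyocytes. KOCKD mice were Rnls knockout mice, made by nuclease cutting in exon 4, with subtotal nephrectomy and the vector, and KOCKD + RNLS mice were knockout mice that had both the nephrectomy and the AAV9-cTnT-RNLS virus. No sham-operated knockout group was analysed here, so the knockout was compared only under CKD, and the sham mice are not stated to have received a vector. Surgery and vector thus cannot be told apart in CKD against sham, whereas both sides of an RNLS comparison were injected. Rnls itself is not analysed here, so genotype and virus rest on the labels. The libraries held 10480788 to 13424078 counted reads, and 13021 genes were tested. The RNA came from heart tissue, so fewer cells of a type and less RNA per cell cannot be told apart.

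Levels are given as CPM, the count of a gene scaled to the library total after trimmed-mean normalization, always in the order of replicates 1, 2 and 3. Differences are log2 fold changes ± standard error (SE) from edgeR's quasi-likelihood test, fitted on all 15 hearts with 3 hearts in each group, and a gene was called where its p, adjusted over all tested genes, was under 0.05. The 3 hearts of a group carry separate labels, which do not state that each came from its own mouse, so p measures the spread between these samples.

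Levels differed somewhere among the 5 groups for 7 of the 10 genes (Postn, Tnc, Sparc, Thbs1, Spp1, Cilp and Fbn1), where 22.2% of all genes were called. Cilp had the lowest adjusted p of the members (0.000387) and Spp1 the highest of those called (0.0387). Fn1 was near the threshold (adjusted p = 0.0523), whereas Fap (adjusted p = 0.206) and Acta2 (adjusted p = 0.747) were not called. By mean level, 8 of the 10 genes were highest in WTSHAM hearts. The exceptions were Sparc, highest in WTCKD, and Fap, highest in KOCKD + RNLS.

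**Figure D1:**
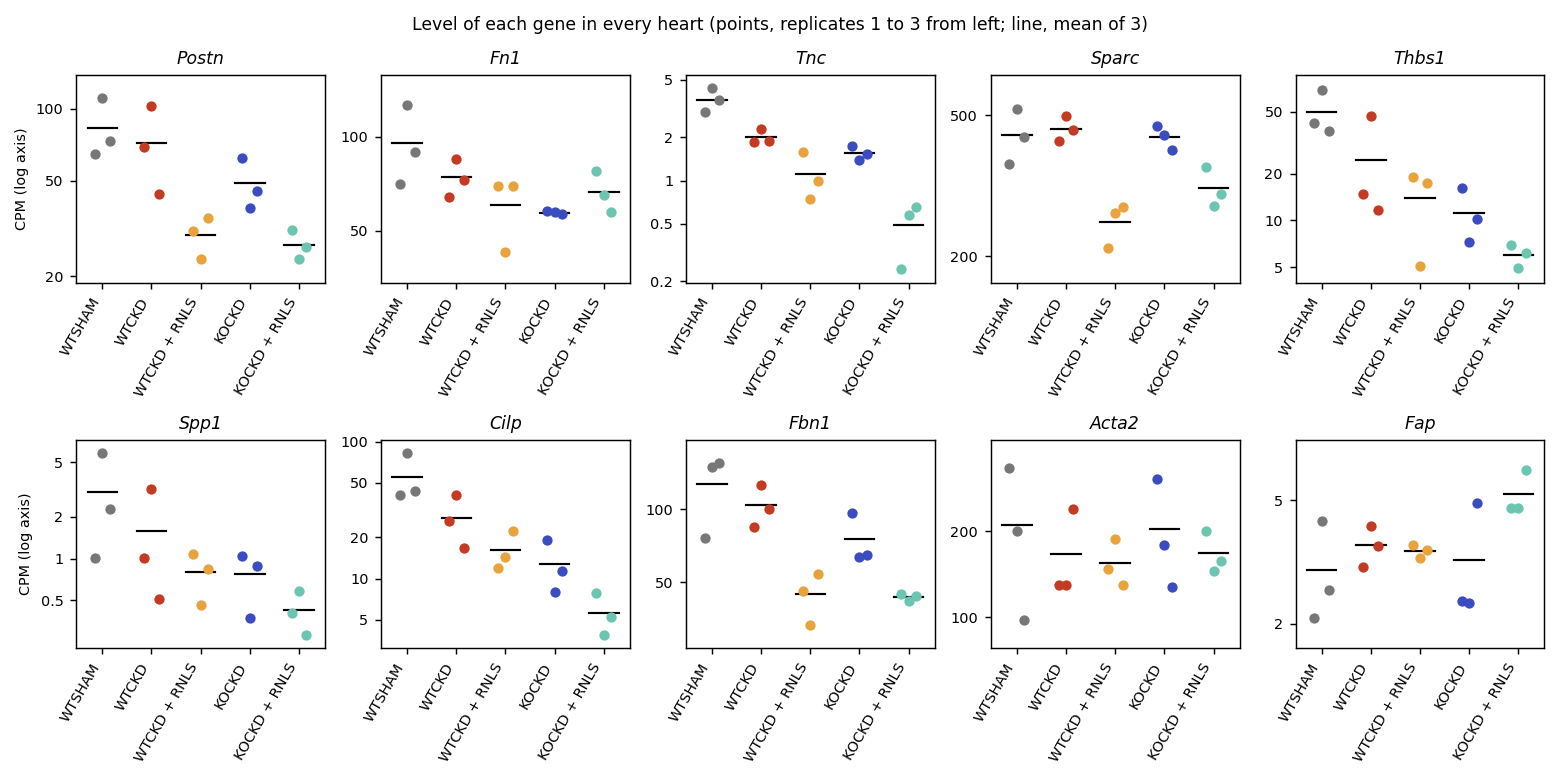
Level of each of the 10 genes in every heart, in CPM on a log axis, by group. Points are single hearts and the line is the mean of 3. Postn, Sparc and Fbn1 of both RNLS groups sit below all hearts of the matching CKD group, while the groups of Acta2 overlap throughout.

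Because Postn and Sparc were lower with RNLS in both genotypes whereas Acta2 was called in no comparison, the sequences before the transcription starts of these 3 genes are shown. Fbn1 was also lower in both, but its RefSeq start lay 1555 bases from that of the older gene model. The 3 genes were chosen on these results, so their windows do not show what sets the genes apart. The sequences are the 150 bases upstream of the RefSeq start on mouse build GRCm38.p6, written 5′ to 3′ on the gene's strand. The windows are chr3:54360957-54361106 (plus strand) for Postn, chr11:55420081-55420230 (minus strand) for Sparc and chr19:34255374-34255523 (minus strand) for Acta2. Capitals mark a match to any of 5 motifs searched on both strands. These were the box that reads TATAAA, the AP-1 site, which reads TGANTCA, the site of TEAD factors, which reads CATTCC, the E-box, which reads CACGTG, and the CArG box of serum response factor in its strict form, with only A or T in its core. Forms of the CArG box with another base in the core were not searched.
Postn: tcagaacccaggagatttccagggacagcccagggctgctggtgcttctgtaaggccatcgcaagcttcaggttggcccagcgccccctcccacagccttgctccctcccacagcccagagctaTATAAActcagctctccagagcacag
Sparc: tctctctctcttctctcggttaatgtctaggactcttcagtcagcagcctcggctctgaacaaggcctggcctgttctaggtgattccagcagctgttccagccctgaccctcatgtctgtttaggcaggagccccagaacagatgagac
Acta2: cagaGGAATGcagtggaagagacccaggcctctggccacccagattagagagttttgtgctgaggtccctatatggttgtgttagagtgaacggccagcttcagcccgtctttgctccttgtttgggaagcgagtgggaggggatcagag
The Postn window held the TATA box 26 to 21 bases before the start, and the Acta2 window held the TEAD site on the opposite strand, 146 to 141 bases before the start. None of the 5 motifs was in the Sparc window. Over 32851 windows of the same length in the RefSeq table, 7.57% held TATAAA, 4.24% TGANTCA, 7.59% CATTCC, 4.3% CACGTG and 0.916% the strict CArG box. No match says only that these letters are not in the window. The RefSeq table held promoters for 7 of the 10 genes, and for 5 of them the start lay within 50 bases of the older gene model. The windows of the other 2 of these 5, Spp1 and Cilp, held none of the 5 motifs.

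Per length, the 10 genes covered a wide range of abundance. In the authors' FPKM (the count scaled to gene length and library total), Sparc was the most abundant, with group means of 90.9 to 175.2, followed by Acta2 with 52.2 to 75.1. Postn (7.98 to 25.1 FPKM), Fn1 (6.81 to 11.7 FPKM), Fbn1 (4.23 to 12.8 FPKM), Cilp (1.33 to 13.4 FPKM) and Thbs1 (1.04 to 8.73 FPKM) formed a middle range. Fap (1.14 to 1.95 FPKM), Spp1 (0.264 to 1.96 FPKM) and Tnc (0.0681 to 0.515 FPKM) were the scarcest. Tnc had only 3 to 58 counts per library and Spp1 only 3 to 77, and Spp1 had the widest error of the 10 in every pairwise comparison.

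No member was called higher in CKD hearts of wild-type mice. In WTCKD against WTSHAM, none of the 10 passed the adjusted threshold, where 2.3% of all genes did, and 8 of the 10 had a lower fold change, beside 50.9% of all genes. At the study's looser threshold, a minimum fold with an unadjusted p under 0.05, Tnc, Thbs1 and Cilp were lower in WTCKD, beside 7.63% of all genes. DESeq2, used as the alternative tool, also called none of the 10. The median log2 fold change of the 10 genes was -0.36, beside -0.01 over all tested genes.

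Tenascin C (Tnc; chr4:63620819-63681760 on mm9, minus strand) is a matrix glycoprotein that loosens cell adhesion and is hardly made in the resting heart. It stood at 3.002, 4.36 and 3.61 CPM in WTSHAM hearts and at 1.86, 2.30 and 1.87 CPM in WTCKD hearts. It was the only 1 of the 10 genes whose WTCKD hearts all lay below the WTSHAM hearts, an arrangement seen for 12.2% of all genes. The log2 fold change was -0.86 ± 0.31 (SE; adjusted p = 0.152). With RNLS it was at 1.59, 0.743 and 0.995 CPM in wild-type CKD hearts, again below every WTCKD heart (log2 fold change -0.84 ± 0.34, adjusted p = 0.176). KOCKD hearts had 1.75, 1.40 and 1.53 CPM and KOCKD + RNLS hearts 0.244, 0.579 and 0.656 CPM. Tnc thus fell with RNLS in the knockout, by 1.66 ± 0.39 on the log2 scale (adjusted p = 0.0124), the largest decrease of the 10 genes in that comparison. Without KOCKD + RNLS replicate 1 the adjusted p was 0.0544. The value rests on 3 to 7 counts per KOCKD + RNLS heart and 15 to 20 per KOCKD heart. Its exons share 176 bases with 8030451A03Rik on the other strand.

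Cilp encodes a matrix protein, first known from cartilage, that binds TGF-β and marks activated fibroblasts of the heart (chr9:65112987-65128413 on mm9, plus strand). WTSHAM hearts had 40.6, 82.6 and 43.5 CPM and WTCKD hearts 26.5, 40.7 and 16.7 CPM. These ranges touch, with the highest WTCKD heart just above the lowest WTSHAM heart (log2 fold change -0.996 ± 0.35, adjusted p = 0.151). WTCKD + RNLS hearts had 11.9, 14.5 and 22.1 CPM, KOCKD hearts 19.2, 7.92 and 11.4 CPM, and KOCKD + RNLS hearts 7.80, 3.89 and 5.25 CPM. All KOCKD + RNLS hearts were below all KOCKD hearts, with a log2 fold change of -1.18 ± 0.42 (adjusted p = 0.0675). It was -0.77 without KOCKD replicate 1, and the adjusted p ran from 0.0633 to 0.274 with each heart left out in turn. In other fits that difference passed the threshold, with an adjusted p of 0.0211 in the fit of the compared libraries and 0.0487 in the unfiltered fit.

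Thbs1 encodes thrombospondin 1, a secreted protein that activates latent TGF-β and binds CD36 and CD47 (chr2:117937612-117952869 on mm9, plus strand). It was at 42.1, 69.5 and 37.4 CPM in WTSHAM hearts and at 14.8, 46.9 and 11.7 CPM in WTCKD hearts. A single WTCKD heart, replicate 2, lay within the sham range while the others were far below it. The log2 fold change was -1.03 ± 0.46 (adjusted p = 0.256), and without that heart it was -1.91 (adjusted p = 0.0343). Both RNLS comparisons gave lower estimates with wide errors: -0.80 ± 0.48 in wild type, from 19.0, 5.11 and 17.5 CPM with RNLS, and -0.89 ± 0.54 in the knockout. In the knockout, KOCKD hearts had 16.1, 7.27 and 10.2 CPM and KOCKD + RNLS hearts 6.91, 4.96 and 6.18 CPM, with no overlap (adjusted p = 0.278, and 0.0307 in the fit of the compared libraries alone). Without KOCKD replicate 1 the knockout estimate was -0.54, and the adjusted p reached 0.598 with a heart left out. The wild-type estimate was 0.082 without WTCKD replicate 2. Platelets also carry thrombospondin 1, and 3 tested platelet genes lay in a list that summed to 10.01 to 22.4 CPM in WTSHAM, 9.70 to 11.8 CPM in WTCKD and 8.09 to 11.5 CPM in WTCKD + RNLS hearts.

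Some of the 10 genes were called lower in wild-type CKD hearts that received RNLS. In WTCKD + RNLS against WTCKD, Postn, Sparc and Fbn1 fell, which is 3 of 10 genes where 2.28% of all genes were called lower, and none rose, where 2.19% of all genes did. All 10 had a lower fold change, beside 47.8% of all genes, and the median was -0.82, beside 0.01 over all genes. For 4 of the 10 (Postn, Tnc, Sparc and Fbn1) every RNLS heart lay below every WTCKD heart, beside 10.8% of all genes. Without WTCKD replicate 2, the heart with the highest level of 9 of the 10 genes in its group, Sparc alone was called.

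In the knockout the same comparison gave 4 lower genes. Postn, Tnc, Sparc and Fbn1 fell in KOCKD + RNLS against KOCKD, where 7.04% of all genes were called lower, and none rose, where 9.05% of all genes did. In this comparison 8 of the 10 had a lower fold change, beside 50.9% of all genes. For 6 of the 10 (those 4, Thbs1 and Cilp) the groups did not overlap, beside 20% of all genes. The median log2 fold change was -0.82, beside -0.01 over all genes. A single member was called when KOCKD replicate 1, KOCKD replicate 2 or any 1 of the KOCKD + RNLS replicates was left out.

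**Figure D2:**
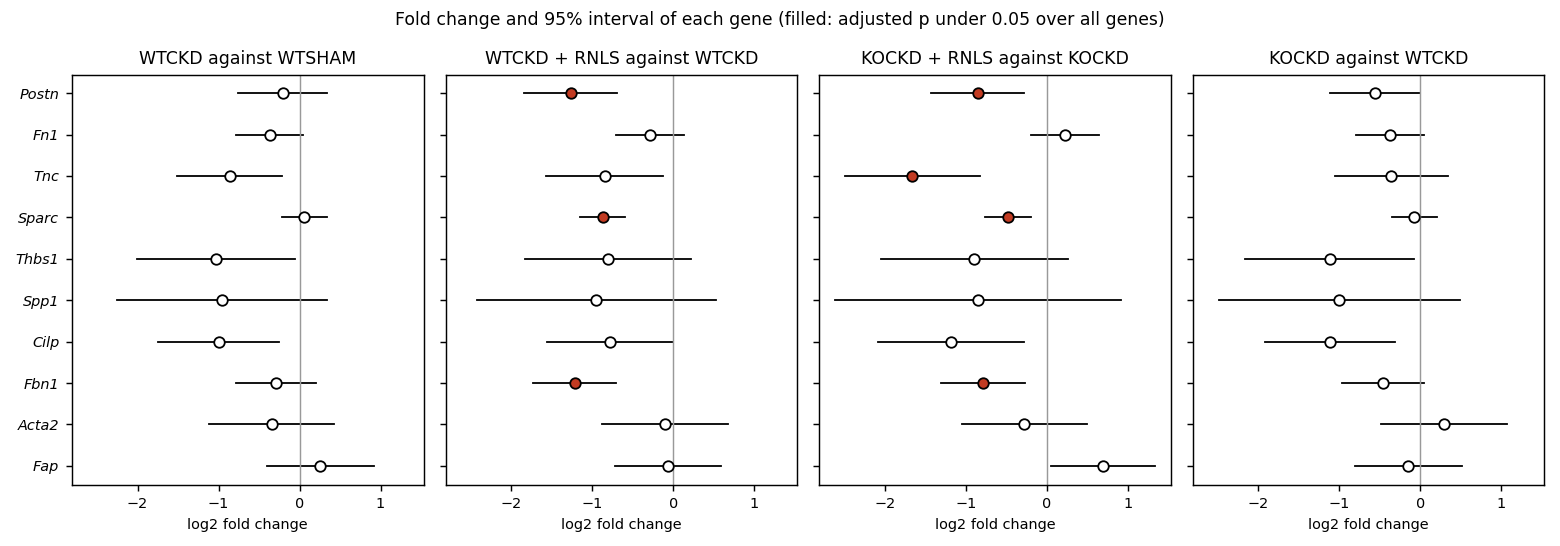
Log2 fold change of each gene with its 95% interval in 4 comparisons, filled where the adjusted p was under 0.05. Postn, Sparc and Fbn1 are filled and below 0 in both RNLS panels, Tnc in the knockout panel, and no gene is filled in the panels of CKD against sham and of knockout against wild type.

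Periostin (Postn; chr3:54165031-54194961 on mm9, plus strand) is secreted by activated fibroblasts, binds collagen and integrins, and is the usual marker of the myofibroblast in the injured heart. WTCKD hearts had 69.1, 102.4 and 44.2 CPM and WTCKD + RNLS hearts 30.8, 23.6 and 34.99 CPM. Every RNLS heart was thus below the lowest WTCKD heart. The level with RNLS was 0.416 times that without (log2 fold change -1.27 ± 0.27, adjusted p = 0.0142), and without WTCKD replicate 2 the estimate was -0.92 (adjusted p = 0.0773). KOCKD hearts had 62.1, 38.7 and 45.4 CPM and KOCKD + RNLS hearts 31.1, 23.5 and 26.4 CPM. The groups were again apart, with a ratio of 0.554 (log2 fold change -0.85 ± 0.27, adjusted p = 0.0437). Leaving out any 1 of the 6 hearts compared ended this call, with adjusted p of 0.0567 to 0.163 and estimates of -0.99 to -0.64. WTSHAM hearts had 64.9, 111.0 and 73.2 CPM, a range that overlapped WTCKD (log2 fold change -0.21 ± 0.26).

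Sparc encodes osteonectin, a collagen-binding protein needed for fibril assembly (chr11:55208002-55233582 on mm9, minus strand). It was at 422, 496 and 456 CPM in WTCKD hearts and at 211, 264 and 276 CPM in WTCKD + RNLS hearts. The gap between the groups was wider than the spread within either of them. Sparc had the smallest error of the 10 genes and the lowest p in this comparison, with a log2 fold change of -0.87 ± 0.13 (adjusted p = 0.00249), and it kept its call when each heart was left out in turn. KOCKD hearts had 465, 440 and 398 CPM and KOCKD + RNLS hearts 357, 278 and 300 CPM. In the knockout Sparc fell by 0.48 ± 0.13 on the log2 scale (adjusted p = 0.0234), and the call was lost in 4 of 6 fits with a heart left out. The difference between the effects of RNLS in the knockout and in wild type was 0.39 ± 0.19 (adjusted p = 0.289). WTSHAM hearts had 364, 521 and 434 CPM, so the sham range enclosed that of WTCKD.

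Fbn1 encodes fibrillin 1, the main protein of the microfibrils that hold latent TGF-β and carry elastin (chr2:125126330-125333729 on mm9, minus strand). WTCKD hearts had 84.5, 125.7 and 100.1 CPM, and WTCKD + RNLS hearts 46.0, 33.4 and 54.1 CPM. The level with RNLS was 0.431 times that without (log2 fold change -1.21 ± 0.24, adjusted p = 0.0106). Without WTCKD replicate 2 the estimate was -1.04 (adjusted p = 0.0567). KOCKD hearts had 96.7, 63.5 and 64.9 CPM, and KOCKD + RNLS hearts lay close together at 44.8, 41.8 and 43.9 CPM. Fbn1 fell by 0.79 ± 0.24 on the log2 scale in the knockout (adjusted p = 0.0384), and the call was lost in 5 of 6 fits with a heart left out. WTSHAM hearts ranged from 75.7 to 154.2 CPM. In the older gene model 2442 of its 12128 exon bases lie opposite exons of Gm9913. The counting is not stated to have used strand, so reads of the pair may not be separated.

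Fibronectin (Fn1; chr1:71632094-71699774 on mm9, minus strand), the adhesive glycoprotein of the provisional matrix, was not called in either RNLS comparison. WTCKD hearts had 64.2, 85.0 and 72.7 CPM and WTCKD + RNLS hearts 69.3, 42.5 and 69.6 CPM. The groups overlapped (log2 fold change -0.29 ± 0.20, adjusted p = 0.46). KOCKD hearts were nearly alike at 57.6, 57.3 and 56.3 CPM, and KOCKD + RNLS hearts had 77.5, 65.0 and 57.3 CPM, which gave an estimate above 0 (0.22 ± 0.20, adjusted p = 0.471). WTSHAM hearts had 70.7, 126.5 and 89.0 CPM, all above the 3 WTCKD + RNLS hearts. That difference was -0.66 ± 0.20 with an adjusted p of 0.0538, and it passed the threshold in DESeq2 (adjusted p = 0.0154) and in the unfiltered fit (adjusted p = 0.0336). Without WTSHAM replicate 2 it was -0.40, and the adjusted p ran from 0.0107 to 0.265 with each heart left out in turn. Fn1 shares 292 exon bases with Apol7d on the other strand.

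Spp1 encodes osteopontin, a phosphoprotein ligand of integrins and CD44 that macrophages also make (chr5:104864137-104870069 on mm9, plus strand). It was scarce and varied widely within groups. WTSHAM hearts had 1.0005, 5.79 and 2.28 CPM, WTCKD hearts 1.01, 3.21 and 0.510 CPM, and WTCKD + RNLS hearts 1.08, 0.464 and 0.842 CPM. In the knockout, levels were 1.05, 0.373 and 0.886 CPM without RNLS and 0.406, 0.579 and 0.281 CPM with it. Replicate 2 was the highest heart in WTSHAM and in WTCKD. Spp1 was called in none of the pairwise comparisons, and the interval for RNLS in wild type ran from -2.42 to 0.53 (log2).

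Acta2 encodes smooth muscle α-actin, which marks myofibroblasts but also vascular smooth muscle (chr19:34315580-34329826 on mm9, minus strand). Its hearts overlapped between every pair of groups compared, from 97.4 to 333.8 CPM in WTSHAM, 129.2 to 238.2 CPM in WTCKD, 129.9 to 187.5 CPM in WTCKD + RNLS, 127.4 to 303.3 CPM in KOCKD and 145.5 to 200.9 CPM in KOCKD + RNLS. The estimates for RNLS were -0.10 (95% interval -0.88 to 0.68) in wild type and -0.27 (-1.05 to 0.50) in the knockout. Intervals of this width do not show that Acta2 stayed the same. Its order across hearts was also unlike that of the other members, with a correlation of -0.05 to their mean pattern over 15 hearts, given as a description.

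Fap encodes fibroblast activation protein, a membrane-bound serine protease (chr2:62339000-62412132 on mm9, minus strand). Its estimate with RNLS was above 0 in the knockout. KOCKD hearts had 2.36, 2.33 and 4.91 CPM and KOCKD + RNLS hearts 4.71, 4.71 and 6.28 CPM. A single KOCKD heart, replicate 3, reached the RNLS range. The log2 fold change was 0.69 ± 0.30 (unadjusted p = 0.0357, adjusted p = 0.127), and without KOCKD replicate 3 it was 1.16 (adjusted p = 0.0245). In wild type the estimate was -0.06 ± 0.31, from 3.04, 4.13 and 3.57 CPM without RNLS and 3.59, 3.25 and 3.45 CPM with it. The difference between genotypes was 0.75 ± 0.43 (adjusted p = 0.378). WTSHAM hearts had 2.08, 4.29 and 2.58 CPM.

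Between the genotypes under CKD, no gene passed the threshold. In KOCKD against WTCKD, 0% of the 13021 genes were called by edgeR and DESeq2 called 8, none of them a member. At an unadjusted p under 0.05 there were 1318 genes, among them Cilp, Thbs1 and Postn, all with a lower level in the knockout, beside 3.68% of all genes that were lower at the study's threshold. Their log2 fold changes were -1.12 ± 0.38 for Cilp, -1.12 ± 0.49 for Thbs1 and -0.56 ± 0.26 for Postn. Without WTCKD replicate 2 they were -0.75 for Cilp, -0.25 for Thbs1 and -0.22 for Postn, and without the 4 hearts with a high summed level of atrial genes Thbs1 stood at 0.010 and Postn at 0.19. In all, 9 of the 10 genes had a lower fold change in the knockout, beside 50.8% of all genes. For Fn1 and Tnc the groups did not overlap, which held for 9.43% of all genes. Acta2 was the exception, at 0.29 ± 0.37.

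Whether the effect of RNLS differed between genotypes was tested as an interaction. None of the 10 genes and none of the 13021 genes passed, with 2288 genes at an unadjusted p under 0.05, none of them a member. DESeq2 called 359 genes, also without a member. The estimates, knockout minus wild type, were positive for 6 and negative for 4 of the 10. The widest interval was that of Spp1 (-2.43 to 2.62) and the narrowest that of Sparc (-0.0045 to 0.79), so the test does not show that the effects were alike.

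WTCKD + RNLS hearts were also lower than sham hearts. Against WTSHAM, 6 of the 10 genes were called, all lower, where 4.81% of all genes were, and for 7 the groups did not overlap, beside 11.9% of all genes. The log2 fold changes were -1.83 ± 0.48 for Thbs1, -1.78 ± 0.37 for Cilp, -1.71 ± 0.33 for Tnc, -1.50 ± 0.24 for Fbn1, -1.48 ± 0.27 for Postn and -0.81 ± 0.13 for Sparc. The call of Thbs1 was lost without WTSHAM replicate 2 (adjusted p = 0.125) or WTCKD + RNLS replicate 2 (adjusted p = 0.0922). This comparison differs in both surgery and virus, and it shares its hearts with the comparisons above.

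Receptors of these proteins were tested as a further list. Of 16 receptor genes, none was called in WTCKD + RNLS against WTCKD, where 4.47% of all genes were called. In the knockout 1 was called, where 16.1% of all genes were. It was Cd36, a receptor of thrombospondin 1 that also takes up fatty acids (-0.47 ± 0.08, adjusted p = 0.00296). The median of the 16 was -0.17 in wild type and 0.04 in the knockout. Against WTSHAM, 5 of the 16 were called lower in WTCKD + RNLS, where 4.81% of all genes were. Among them were Cd44, a receptor of osteopontin (-0.83 ± 0.22), and Itga9, an integrin subunit that binds tenascin C (-0.65 ± 0.13).

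Of 18 tested relatives of the matricellular members (further thrombospondins, CCN proteins, tenascins and proteins like Sparc), none was called in wild type with RNLS. There 2.28% of all genes were called lower and 2.19% higher. In the knockout, Spock2, a proteoglycan related to Sparc, rose by 1.22 ± 0.37 and Tnxb, the tenascin of connective tissue, by 0.77 ± 0.17, and none fell. These are 2 of 18, where 9.05% of all genes were called higher and 7.04% lower. The median of the 18 was -0.47 in wild type and -0.02 in the knockout. Sparcl1, the most abundant relative, stood at -0.28 ± 0.08 in wild type (adjusted p = 0.0503).

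Among 16 genes of microfibrils and elastic fibres, which surround fibrillin 1, Ltbp4 (-0.57 ± 0.13) and Efemp1 (-0.63 ± 0.15) fell with RNLS in wild type, and Eln, which encodes elastin (-1.24 ± 0.30), and Mfap5 (-0.79 ± 0.21) fell in the knockout. Ltbp1, which tethers latent TGF-β, rose in the knockout (0.48 ± 0.12). In wild type 2 of the 16 were thus lower, beside 2.28% of all genes. In the knockout 2 were lower and 1 higher, beside 7.04% and 9.05% of all genes. Efemp1 was also the only gene of this list called for CKD in wild type, where it rose (0.82 ± 0.15), beside 2.3% of all genes called. Of 9 small leucine-rich proteoglycans, which coat collagen fibrils, none was called in wild type. Podn rose in the knockout (1.15 ± 0.21), which is 1 of 9 where 9.05% of all genes were called higher.

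Other genes of activated fibroblasts also fell with RNLS. Of 12 tested, 3 fell and 1 rose with RNLS in wild type, where 2.28% of all genes were called lower and 2.19% higher. In the knockout 4 fell, where 7.04% of all genes were called lower. Meox1, a transcription factor of activated fibroblasts, fell by 1.55 ± 0.23 and by 1.26 ± 0.23. Loxl1, an enzyme that crosslinks elastin and collagen, fell by 0.84 ± 0.16 and by 0.95 ± 0.17, and Ckap4, a membrane protein of the endoplasmic reticulum, by 0.65 ± 0.17 and by 0.73 ± 0.17. Lox fell in the knockout (-0.95 ± 0.31), and Pdlim7 rose in wild type (0.51 ± 0.14). The medians of the list were -0.66 and -0.69. Cthrc1, a marker of matrix-making fibroblasts after injury, did not pass the filter, with at most 10 counts in any heart.

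**Figure D3:**
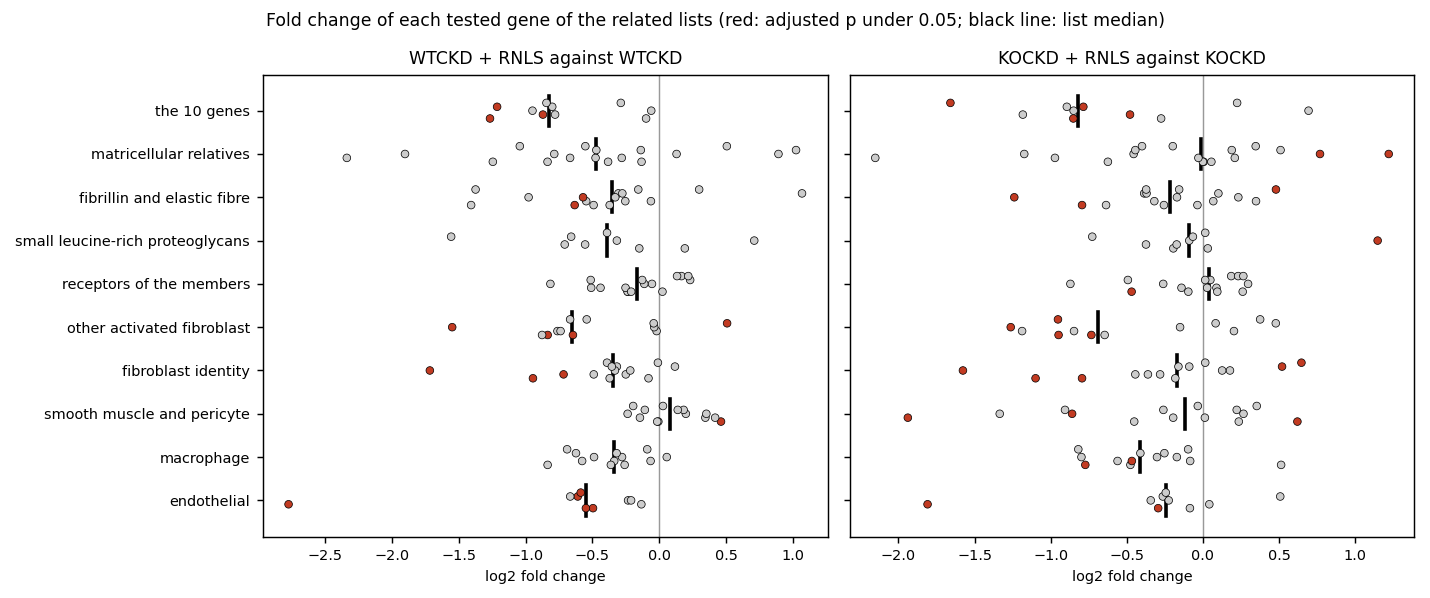
Log2 fold change of every tested gene of 10 lists in both RNLS comparisons, with red for an adjusted p under 0.05 and a black line for the list median. The medians of the 10 genes are -0.82 in both genotypes, and those of the other activated fibroblast genes -0.66 in wild type and -0.69 in the knockout.

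General fibroblast genes were mostly lower with RNLS in wild type and were called in both directions in the knockout. In wild type 13 of 14 had a lower fold change, with 3 called lower, none higher and a median of -0.34, and in the knockout 9 of 14 did, with 3 called lower, 2 higher and a median of -0.17. Over all genes, 2.28% were called lower and 2.19% higher in wild type, and 7.04% and 9.05% in the knockout. Of the 14, Col3a1 (-1.72 ± 0.24), Col1a1 (-0.95 ± 0.26) and Dpt (-0.72 ± 0.18) fell with RNLS in wild type. In the knockout, Col3a1 (-1.58 ± 0.24), Col1a1 (-1.10 ± 0.26) and Mfap5 fell, while Ddr2 (0.65 ± 0.19) and Lama2 rose. The fibroblast identity genes Pdgfra and Tcf21 were called in neither RNLS comparison, which does not show that they stayed the same. Mean Pdgfra was 55.4 CPM in WTCKD, 47.5 in WTCKD + RNLS, 41.9 in KOCKD and 45.7 in KOCKD + RNLS. Tcf21 means were 8.33, 6.51, 7.25 and 6.48 CPM in the same order. The list's summed level was 2799 to 4308 CPM in WTCKD, 2178 to 3042 CPM in WTCKD + RNLS, 2443 to 3273 CPM in KOCKD and 2522 to 2868 CPM in KOCKD + RNLS. The 5 genes outside the set whose levels were most like the mean pattern of the members over the 15 hearts were Col5a2 (Pearson's r = 0.96), Fstl1 (0.96), Col1a2 (0.95), Col6a1 (0.95) and Col6a2 (0.94), given as a description among 11719 genes, since hearts share their groups and library effects.

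Markers of other cells also moved. With RNLS, 2.28% of all genes were called lower and 2.19% higher in wild type, and 7.04% and 9.05% in the knockout. The summed level of 9 endothelial genes was 1436 to 1603 CPM in WTCKD and 1006 to 1111 CPM in WTCKD + RNLS, where 5 of 9 fell, and 1259 to 1462 CPM in KOCKD and 1174 to 1242 CPM in KOCKD + RNLS, where 2 fell. Cldn5, an endothelial junction protein, fell most (-2.77 ± 0.32 and -1.81 ± 0.31). The 13 macrophage genes, which bear on Spp1, summed to 447 to 611 CPM in WTCKD and 413 to 453 CPM in WTCKD + RNLS. In the knockout the sums were 407 to 485 CPM in KOCKD and 302 to 397 CPM in KOCKD + RNLS. Of the 13, 12 had a lower fold change with RNLS in each genotype, with medians of -0.34 in wild type and -0.41 in the knockout. Called lower were 0 in wild type and 2 (Lyz2 and C1qa) in the knockout. The 14 smooth muscle and pericyte genes, which bear on Acta2, summed to 1618 to 2084 CPM in WTCKD and 1704 to 2080 CPM in WTCKD + RNLS, which overlap, and to 1753 to 1794 CPM in KOCKD and 1856 to 2112 CPM in KOCKD + RNLS, which do not. Rgs5 and Abcc9 are the most abundant of the list and weigh most in its sum. In the knockout 8 of the 14 had a lower fold change, with a median of -0.11, 2 called lower and 1 higher. Abcc9, a potassium channel subunit of pericytes and also of cardiomyocytes, rose in both genotypes (0.46 ± 0.10 and 0.62 ± 0.10). In the knockout Myl9, a myosin light chain of smooth muscle, fell by 0.86 ± 0.24, and Actg2, the smooth muscle γ-actin, fell by 1.94 ± 0.61 with at most 42 counts in any knockout heart. The 10 cardiomyocyte genes summed to 92848 to 107868 CPM in WTCKD and 114339 to 123799 CPM in WTCKD + RNLS, and to 94402 to 101324 CPM and 107629 to 110481 CPM in the knockout. In wild type 9 of them had a higher fold change, and 1, Ttn, was called higher. In the knockout 6 of the 10 had a lower fold change, with a median of -0.06. There Myh6, the most abundant, was called higher, as were Ttn and Ryr2. Red cell genes summed to 38.1 to 106.6 CPM in WTCKD and 217.7 to 529.0 CPM in WTCKD + RNLS, and all 6 tested had a higher fold change, with Hbb-bs, a β-globin, called (2.72 ± 0.75, adjusted p = 0.0494). In the knockout the red cell sums overlapped, at 51.1 to 375.0 CPM without RNLS and 73.8 to 293.0 CPM with it. Epicardial and mesothelial genes summed to 9.87 to 16.99 CPM in WTCKD and 3.90 to 6.03 CPM in WTCKD + RNLS, and to 3.45 to 5.64 CPM and 3.65 to 5.85 CPM in the knockout. Of 3 tested, Upk3b, a mesothelial membrane protein, was called lower in wild type, from 2.54, 8.45 and 0.0851 CPM in WTCKD to 0.0834, 0 and 0 CPM with RNLS. The part of these shifts in the results for the 10 genes was not tested.

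**Figure D4:**
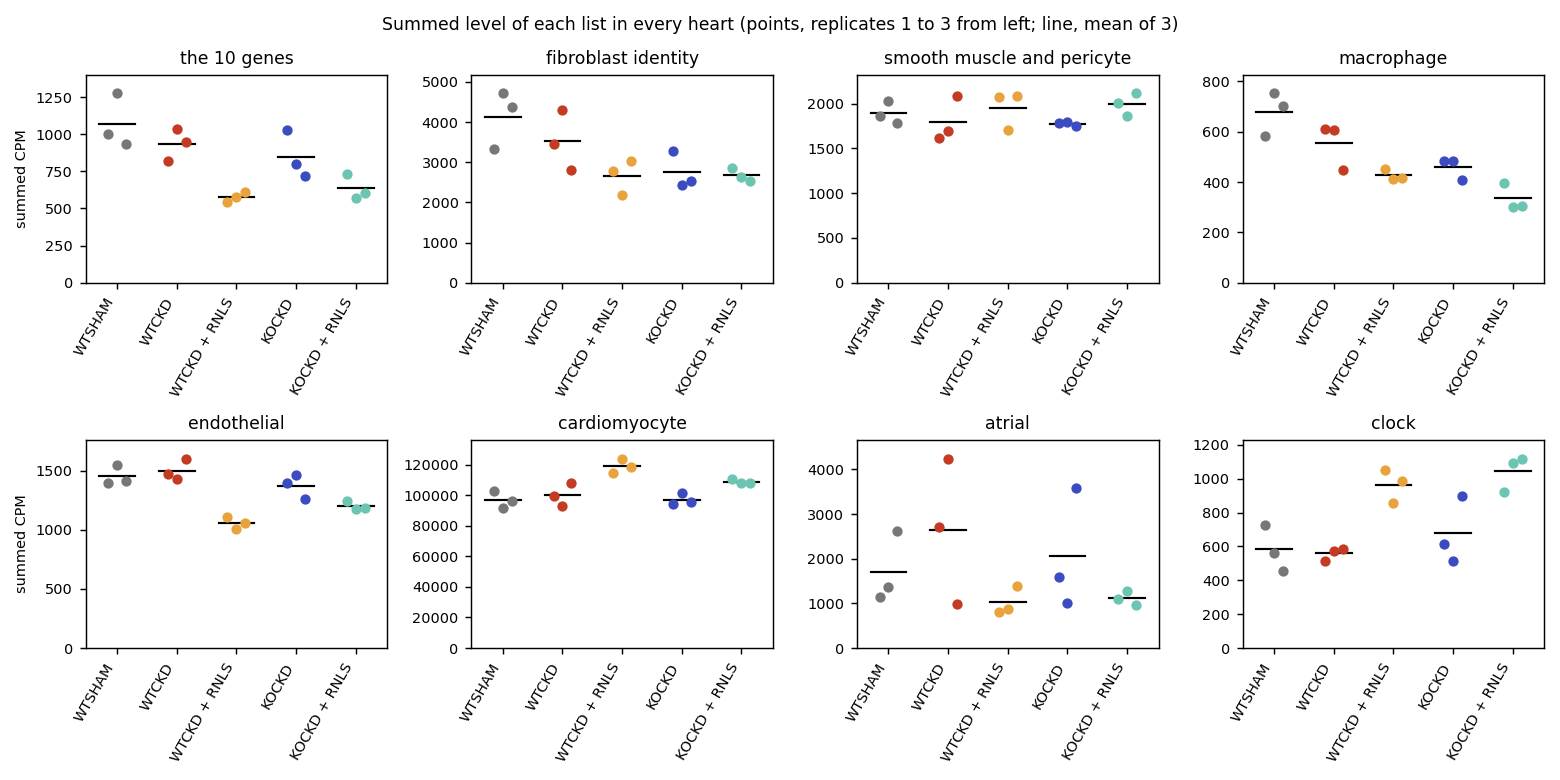
Summed CPM of the 10 genes and of 7 marker lists in every heart, with axes from 0, points for single hearts and lines for the mean of 3. Endothelial sums are lower and cardiomyocyte and clock sums higher in both RNLS groups than in the matching CKD group, and atrial sums stand out in single hearts. A sum follows its most abundant genes, and 6 of the 10 cardiomyocyte genes had a lower fold change with RNLS in the knockout.

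Atrial genes and clock genes set single hearts and groups apart. Myl7, the atrial myosin light chain, was at 420, 478 and 1.28 CPM in WTCKD hearts, at 53.1, 4.85 and 805 CPM in KOCKD hearts and at 310 CPM in WTSHAM replicate 3, against 0.325 to 0.749 CPM in KOCKD + RNLS hearts. The summed level of the atrial list was above 2000 CPM in 4 hearts: WTSHAM replicate 3, WTCKD replicates 1 and 2 and KOCKD replicate 3. Without these 4 hearts, with the single WTCKD heart left assumed to vary like the others, none of the 10 genes was called for RNLS in wild type and Postn and Fap were called in the knockout. The estimates then were -0.56 for Postn, -0.86 for Sparc and -1.16 for Fbn1 in wild type, and -0.89, -0.53 and -0.87 in the knockout. Of 13 clock genes, 10 were called in wild type with RNLS (3 lower and 7 higher), where 4.47% of all genes were called. In the knockout 9 were called (2 lower and 7 higher), where 16.1% of all genes were. Arntl, the clock activator BMAL1, fell by 4.06 ± 0.46 and by 3.66 ± 0.49, while Per2 rose by 3.07 ± 0.59 and by 2.37 ± 0.57. The hour at which hearts were taken is not given in the sources used here, and its part in the results was not tested.

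Hearts of a group tended to be high or low for many of the 10 genes at once. WTSHAM replicate 2 had the highest level of its group for 8 genes, WTCKD replicate 2 for 9, KOCKD replicate 1 for 9 and KOCKD + RNLS replicate 1 for 7, while WTSHAM replicate 1 was the lowest for 8. The summed level of the 10 genes was 937 to 1274 CPM in WTSHAM, 816 to 1036 CPM in WTCKD, 541 to 610 CPM in WTCKD + RNLS, 721 to 1025 CPM in KOCKD and 568 to 731 CPM in KOCKD + RNLS. Sparc and Acta2 make up most of that sum. The correlation of each gene with the mean pattern of the other 9, over 15 hearts and as a description, was 0.66 to 0.94 for 8 genes and -0.34 for Fap.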

How the data were processed

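RNA was sequenced from 15 mouse hearts with a stranded mRNA kit. The authors deposited whole-number read counts per gene and FPKM values in a table of gene symbols. The submitters' processing notes name Trimmomatic, HISAT2, HTSeq, Cufflinks and DESeq2, without versions. The study's methods name mm9 as the build and the processing notes GRCm39, so gene positions come from GENCODE vM1 on mm9 and promoters from a RefSeq table of GRCm38.p6. Whether HTSeq counted by strand, and which library ran on which sequencer, is not given in the sources used here. The FPKM deposited by the authors equal count over gene length and library total, and were used only to set genes beside each other. Counts were tested with edgeR 4.0.16 in R 4.3.3 (filterByExpr with a minimum count of 10 and total of 15, TMM scaling, a quasi-likelihood fit over all 15 libraries, Benjamini-Hochberg adjustment over 13021 genes), checked on simulated data. Alternatives were DESeq2 1.42.0, RLE scaling, no filter, a replicate block, only the compared libraries, the study's threshold (a minimum fold with an unadjusted p under 0.05), and leaving out each library. The members, lists and tests were chosen with earlier results of these data known. Named genes are the 10 members and, per list and comparison, at most the 4 largest called changes with an average log2 CPM over 1, or the 2 most abundant genes where none was called; Pdgfra, Tcf21, Lama2, Actg2 and Cthrc1 are named beyond that rule, after their values were seen.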

Additional observations from a re-analysis of the deposited data

How the results depend on the processing

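RLE scaling changed no call of a single gene. At the study's threshold, 3 genes passed in WTCKD against WTSHAM and 3 in KOCKD against WTCKD. With 1 library left out, the number of the 10 genes called ranged from 0 to 1 for WTCKD against WTSHAM, 1 to 3 for RNLS in wild type, 1 to 4 for RNLS in the knockout, 5 to 8 for WTCKD + RNLS against WTSHAM and 6 to 8 for any difference. The 1 called for CKD was Thbs1, without WTCKD replicate 2. Signs turned only for estimates that were not called. The log2 ranges were then, for WTCKD against WTSHAM, -0.56 to 0.058 (Postn), -0.059 to 0.20 (Sparc) and -0.69 to 0.16 (Acta2). For RNLS in wild type they were -1.14 to 0.082 (Thbs1), -1.38 to 0.080 (Spp1), -0.27 to 0.26 (Acta2) and -0.17 to 0.059 (Fap), and for RNLS in the knockout -0.52 to 0.13 (Acta2). For KOCKD against WTCKD they were -1.43 to 0.020 (Spp1), -0.11 to 0.65 (Acta2) and -0.61 to 0.027 (Fap), for WTCKD + RNLS against WTSHAM -0.78 to 0.057 (Acta2), and for the interaction -0.96 to 0.27 (Thbs1), -0.92 to 0.53 (Spp1), -0.77 to 0.011 (Cilp) and -0.53 to 0.23 (Acta2).

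Same-numbered libraries deviated together (r over 0.1) in 2 of 15 pairs, with r from -0.36 to 0.33. Of 30 entries, in which libraries recur across comparisons, 10 correlated best with their own number. The main fit therefore did not pair samples by number, although deviations from means of 3 hearts cannot exclude a pairing. With a replicate block, Postn for RNLS in the knockout (adjusted p = 0.0537) and Thbs1 in WTCKD + RNLS against WTSHAM (adjusted p = 0.0513) were no longer called, and the interaction of Spp1 was -0.25. Without the 4 libraries of high atrial level, an alternative chosen after seeing the data, the genes called numbered 0 for RNLS in wild type and 2 in the knockout. The turned estimates there were 0.27 (Thbs1) and 0.65 (Spp1) for RNLS in wild type, 0.19 (Postn), 0.010 (Thbs1) and 0.48 (Spp1) for KOCKD against WTCKD, and -0.33 (Postn), -1.38 (Spp1) and 0.11 (Acta2) for the interaction. Fewer libraries leave less power, and the cause of each change was not tested. Depth limits Tnc and Spp1, with as few as 3 counts in a library.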
